A study of Mus musculus with 74 samples.

Results

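The pyruvate dehydrogenase kinases of mouse liver, *Pdk1*, *Pdk2*, *Pdk3* and *Pdk4*, were taken from the RNA-seq and ChIP-seq tables of a study of the corepressor subunit GPS2. Rows were taken by gene symbol and not by any measured value, but the family was chosen with earlier results of these data known. Taken were the 4 kinase rows among 14583 genes of the RNA-seq table, and every row of the ChIP-seq tables whose nearest gene was a kinase. These were 20 of 85764 regions in the histone table of the *Gps2* line, 19 of 68818 in the H3K27ac table of the *Ncor* and *Smrt* lines, and between 7 and 34 in each of the 9 other ChIP-seq tables. On mm9 (NCBIM37), *Pdk1* (Entrez gene 228026) lies at chr2:71711281-71741915 on the plus strand, *Pdk2* (18604) at chr11:94887572-94902668 on the minus strand, *Pdk3* (236900) at chrX:91009946-91077540 on the minus strand and *Pdk4* (27273) at chr6:5433351-5446309 on the minus strand.

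The pyruvate dehydrogenase complex of mitochondria turns pyruvate into acetyl-CoA, and so commits carbon from glucose to oxidation or to lipid synthesis. Each of the kinases phosphorylates the E1α subunit (*Pdha1*) and switches the complex off, and the phosphatases PDP1 and PDP2 reverse this. *Pdk4* is known as the isoenzyme that liver, heart and muscle make in fasting, when pyruvate is spared, and as a target gene of the fatty acid receptor PPARα and of glucocorticoids. *Pdk2* is known as the broadly expressed form that predominates in liver, *Pdk1* as a target of the hypoxia factor HIF1, and *Pdk3* as a form of restricted expression. GPS2, NCOR, SMRT and the deacetylase HDAC3 form a corepressor complex that nuclear receptors carry to chromatin. H3K27ac is a histone mark of active promoters and enhancers, and H3K4me3 one of promoters.

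Livers came from C57BL/6 mice on chow diet, 8 to 12 weeks old by the sample labels, and male by the study's methods. The column headers of the H3K27ac and H3K4me3 counts of the *Gps2* line name the mice as fed, and the other column headers give no feeding state. *Gps2* LKO mice carried floxed *Gps2* alleles and Cre under the albumin promoter, which acts in hepatocytes, and their WT controls carried the floxed alleles without Cre. *Ncor* LKO and *Smrt* LKO mice lacked the gene in liver, and the Cre that was used is not given in the sources used here. *Pparα* KO mice lacked PPARα in the whole body, from an allele made on a mixed 129S4 background. Each line had WT libraries of its own, and 2 to 4 immunoprecipitations were pooled per ChIP-seq library. Nothing in the labels says that the numbered libraries were separate animals, so p-values measure the spread between these libraries.

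RNA-seq held 4 WT and 4 *Gps2* LKO libraries of 13.2 to 20.1 M reads, and the ChIP-seq tables held 64 libraries of 7.9 to 46.1 M tags. The number of libraries per group was 1 (GPS2 and Pol II in the *Gps2* line), 2 (H3K27ac and H3K4me3 in the *Gps2* line, PPARα in the *Pparα* line) or 3 (the rest). *Gps2* itself stood at 16.4, 15.8, 16.7 and 15.1 counts per M reads (CPM, TMM-scaled) in WT and at 12.7, 9.86, 9.16 and 12.9 in LKO livers. The share of GPS2 tags inside peaks was 7.07% in WT and 0.310% in *Gps2* LKO liver. That of PPARα tags was 2.14 to 2.44% in WT and 0.581 to 0.652% in *Pparα* KO liver. LKO library 2 of the RNA-seq stood apart from the other LKO libraries, with a chi-square per degree of freedom of 19.8 to 29.1 against each of them. LKO library 3 gave 9.87 and 9.14 against LKO libraries 1 and 4, which differed from each other by 1.53, and WT libraries gave 1.69 to 2.53 among themselves. Where LKO library 2 decides a call on a kinase, this is given beside the result. In bulk liver, fewer cells of a type and less RNA per cell cannot be told apart.

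The sites that recurred at *Pdk4* across the tables numbered 8, and they are named here by the distance of the GPS2 peak from the *Pdk4* transcription start. They were the promoter (-0.2 kb), 2 sites upstream at -2.7 kb and -13.6 kb, and 5 sites downstream of the start at 11, 16.2, 22, 25.1 and 46.2 kb. The site at 11 kb lies in the 3′ UTR of the gene and those from 16.2 kb on are intergenic. Peaks of GPS2, NCOR and PPARα at them were 137 to 357 bp long, and the H3K27ac regions that held the same GPS2 peak centres were 520 to 7206 bp long. The H3K27ac regions at the *Pdk4* promoter reached the -2.7 kb site, which therefore has no H3K27ac region of its own. Those named 11, 46.2 and -13.6 kb also held other GPS2 peaks of the *Gps2* line, at 9.5, 47.1 and -13.2 kb. Their H3K27ac values therefore do not belong to the named site alone. The PPARα peaks at the kinase genes were searched for the element PPARα binds together with RXR, 2 copies of AGGTCA in the same direction with 1 base of any kind between them (DR1). HNF4α and RXR pairs bind the same kind of repeat. The search allowed up to 2 mismatches in the 12 fixed bases, on both strands, in windows of 201 bases around the centres of the PPARα peaks of the *Gps2* line. Sequence is from the plus strand of mm9, in lower case with the matched 13 bases in capitals. Shown are the -13.6 and -2.7 kb windows, where NCOR was called lower in *Pparα* KO liver, the *Pdk4* promoter and 25.1 kb site that serve for comparison, and 1 matched window each of *Pdk1* and *Pdk2* at which PPARα was called in a knockout.
*Pdk4* -13.6 kb, chr6:5459792-5459992: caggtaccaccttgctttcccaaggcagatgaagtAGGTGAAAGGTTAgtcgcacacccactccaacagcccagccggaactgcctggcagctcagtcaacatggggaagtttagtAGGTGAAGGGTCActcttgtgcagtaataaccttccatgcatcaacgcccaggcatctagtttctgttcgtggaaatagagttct
*Pdk4* -2.7 kb, chr6:5448871-5449071: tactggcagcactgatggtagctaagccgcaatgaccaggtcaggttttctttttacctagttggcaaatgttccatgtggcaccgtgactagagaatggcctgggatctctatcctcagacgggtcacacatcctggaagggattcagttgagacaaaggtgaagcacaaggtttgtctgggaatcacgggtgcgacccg
*Pdk4* promoter, chr6:5446386-5446586: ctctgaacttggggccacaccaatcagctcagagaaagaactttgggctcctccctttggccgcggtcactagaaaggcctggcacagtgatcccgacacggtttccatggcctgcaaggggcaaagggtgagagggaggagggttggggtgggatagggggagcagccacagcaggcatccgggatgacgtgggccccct
*Pdk4* 25.1 kb, chr6:5421068-5421268: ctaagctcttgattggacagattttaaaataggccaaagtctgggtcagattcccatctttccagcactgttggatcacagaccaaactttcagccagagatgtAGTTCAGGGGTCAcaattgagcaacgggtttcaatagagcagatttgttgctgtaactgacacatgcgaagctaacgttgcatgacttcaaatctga
*Pdk1* 18.3 kb, chr2:71731129-71731329: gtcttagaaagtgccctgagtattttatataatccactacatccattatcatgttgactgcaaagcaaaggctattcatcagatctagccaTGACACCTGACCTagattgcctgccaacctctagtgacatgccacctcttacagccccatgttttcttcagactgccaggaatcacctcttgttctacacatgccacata
*Pdk2* 2.0 kb, chr11:94900059-94900259: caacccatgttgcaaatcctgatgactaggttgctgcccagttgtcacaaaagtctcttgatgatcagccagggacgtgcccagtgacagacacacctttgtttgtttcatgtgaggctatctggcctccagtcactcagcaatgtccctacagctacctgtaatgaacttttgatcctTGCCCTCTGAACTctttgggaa

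The search matched 3 of the 10 *Pdk4* windows. The window at -13.6 kb held 2 separate matches, at positions 36 and 117 from its first base, and that at 25.1 kb held 1. The third was an intronic window at 9.5 kb. The promoter window of *Pdk4* came no closer than 4 mismatches and the -2.7 kb window no closer than 3. Matches were also present in 2 of 7 *Pdk1* windows (-5.5 and 18.3 kb), in 1 of 7 *Pdk2* windows (2.0 kb) and in 0 of 1 *Pdk3* windows. A match was held by 13.3% of all 102417 windows of that table, by 5.56% of the 19939 within 1000 bp of a transcription start and by 15.2% of the 82478 farther away. A match is a description of the letters and not evidence of binding, and its absence says only that these letters were not in the window.

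In *Gps2* LKO liver, *Pdk4* and *Pdk1* mRNA were higher than in WT, *Pdk2* did not pass the test and *Pdk3* was at the limit of detection. *Pdk4* stood at 1.49, 2.61, 2.85 and 2.04 CPM in the WT libraries and at 4.93, 5.03, 4.89 and 5.60 CPM in the LKO libraries. Every LKO library lay above every WT library, and the means were 2.25 ± 0.611 and 5.11 ± 0.328 CPM (SD, n = 4). The log2 fold change (logFC) was 1.17 with a standard error (SE) of 0.17 (edgeR quasi-likelihood test, adjusted p = 0.000146 over 12220 tested genes). *Pdk1* stood at 92.2, 93.5, 93.4 and 99.0 CPM in WT and at 141.8, 140.3, 149.7 and 149.0 CPM in LKO libraries. Its groups did not overlap either, and it rose by a smaller ratio from a far larger count (logFC 0.62, SE 0.06, adjusted p = 2.31e-06). Called higher in the same fit were 23.4% of all tested genes, and 21.4% were called lower, so that 2 of the 3 tested kinases stood among the higher ones.

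*Pdk2* was at 105.6, 111.6, 112.0 and 102.9 CPM in WT and at 89.6, 109.7, 91.1 and 84.7 CPM in LKO libraries. LKO library 2 lay within the WT range and the other 3 LKO libraries below it. The logFC was -0.20 with an SE of 0.08, and the adjusted p of 0.0518 missed the threshold. Without LKO library 2 the logFC was -0.31 and *Pdk2* was called lower (adjusted p = 7.41e-05). *Pdk3* had 6, 4, 9 and 8 reads in WT and 11, 11, 6 and 12 reads in LKO libraries. It fell below the filter on low counts and was not tested across genes, and its groups overlapped (0.411 ± 0.134 and 0.685 ± 0.273 CPM, SD, n = 4). An exact two-sided permutation test of each kinase alone gave p = 0.0286 for *Pdk1* and *Pdk4*, the smallest that 4 against 4 libraries allow, p = 0.0857 for *Pdk2* and p = 0.143 for *Pdk3*.

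**Figure D1:**
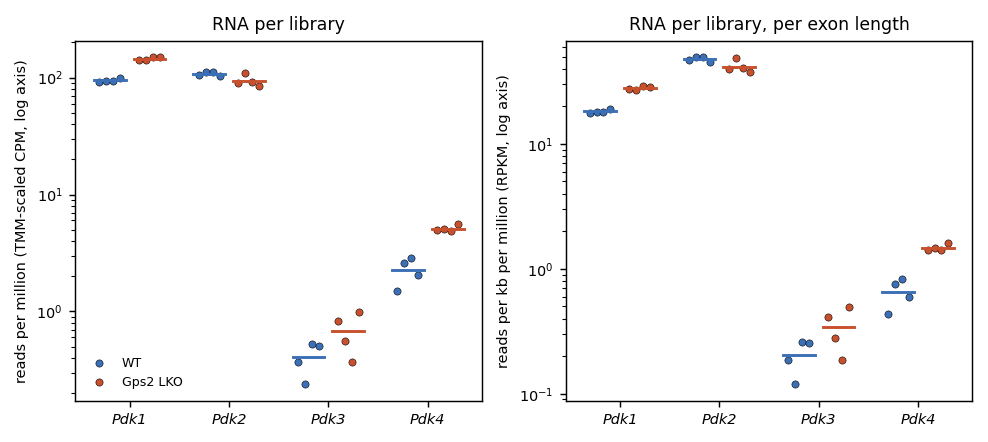
RNA-seq level of each kinase in every WT and *Gps2* LKO library, as CPM and as CPM per kilobase of exon (RPKM), both on log axes. Points are libraries, 4 per group, and lines are group means. *Pdk4* and *Pdk1* have all LKO points above all WT points, while the *Pdk2* and *Pdk3* points of both groups overlap.

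Levels can be compared between the genes only per length of exon. In WT liver *Pdk2* stood highest at 47.7 ± 1.99 RPKM (SD, n = 4), followed by *Pdk1* at 18.2 ± 0.592, *Pdk4* at 0.651 ± 0.177 and *Pdk3* at 0.205 ± 0.0670. The libraries of neighbouring genes in this order did not overlap in WT. In LKO liver the order was the same, with 41.4 ± 4.84 for *Pdk2*, 28.0 ± 0.935 for *Pdk1*, 1.48 ± 0.0951 for *Pdk4* and 0.342 ± 0.137 for *Pdk3*. *Pdk4* thus remained below *Pdk1* and *Pdk2* in every library of both groups. Without regard to exon length, the CPM of *Pdk1* was 42.7 times and that of *Pdk2* 48.8 times that of *Pdk4* in WT libraries. In LKO libraries these values were 28.3 and 18.2. They are geometric means of the ratios within libraries, with 0.5 counts added to each gene, and they compare between groups and not between genes. On the log2 scale, the *Pdk4* to *Pdk1* ratio was 0.60 higher in LKO than in WT and the *Pdk4* to *Pdk2* ratio 1.43 higher, each with an exact permutation p of 0.0286 (0.0429 adjusted over the 3 ratios). The *Pdk4* to *Pdk3* ratio was 0.54 higher with overlapping groups (exact permutation p = 0.257). Because both genes of a ratio come from the same library, these values do not depend on how libraries were scaled.

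Around the kinases, genes of the same enzymatic step moved in both directions. In the same fit 23.4% of all tested genes were called higher and 21.4% lower, and these genes were not tested as a group. Of the 5 subunits of the pyruvate dehydrogenase complex, *Dlat* (the E2 core, logFC 0.48, adjusted p = 5.21e-05) and *Dld* (E3, logFC 0.19, adjusted p = 0.0373) rose. *Pdha1*, the substrate of the kinases, had a logFC of 0.08, *Pdhb* of 0.17 and *Pdhx* of -0.13, and these did not pass. All 3 genes on the phosphatase side passed the test. *Pdp1*, a phosphatase that reactivates the complex, rose (logFC 0.98, adjusted p = 0.00143), while *Pdp2*, the other phosphatase, fell (logFC -0.64, adjusted p = 0.00234), and so did *Pdpr*, a regulatory subunit (logFC -1.12, adjusted p = 0.00623). Per length, *Pdp2* was at 7.89 ± 0.315 RPKM in WT and *Pdp1* at 0.269 ± 0.0570.

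Of 7 genes of pyruvate supply and use 4 were called higher and 2 lower, where 23.4% of all tested genes were higher and 21.4% lower, and the group itself was not tested. Both subunits of the mitochondrial pyruvate carrier rose, *Mpc1* with a logFC of 0.99 (adjusted p = 0.000126) and *Mpc2* with 0.94 (adjusted p = 1.42e-05). *Ldhb*, a lactate dehydrogenase subunit, rose from a low level (1.03 to 2.28 CPM, logFC 1.12, adjusted p = 0.00371), and so did *Pklr*, the liver pyruvate kinase (logFC 0.29, adjusted p = 0.00304). *Pcx*, pyruvate carboxylase, fell (logFC -0.48, adjusted p = 0.000327), as did *Pck1*, which makes phosphoenolpyruvate from oxaloacetate (logFC -0.20, adjusted p = 0.0147). Of the branched-chain ketoacid dehydrogenase genes, a sister complex with a kinase of its own, *Bckdhb* rose (logFC 0.25, adjusted p = 0.0129) and *Dbt* and the phosphatase *Ppm1k* fell (logFC -0.16 and -0.40, adjusted p = 0.0457 and 0.00213), so that 1 of 5 was higher and 2 were lower. Among 3 lipoylation genes *Lipt2* rose (logFC 0.94, adjusted p = 0.00393) and the other two did not pass.

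Of 8 genes for known regulators of *Pdk4*, 1 rose and 4 fell, against the same 23.4% and 21.4% of all tested genes. The coactivator *Ppargc1a* rose (logFC 0.53, adjusted p = 0.00172). *Ppara* (logFC -0.39, adjusted p = 0.0205), its partner *Rxra* (-0.26, adjusted p = 0.0124), *Ppard* (-0.50, adjusted p = 0.000521) and *Hnf4a* (-0.41, adjusted p = 0.000281) fell. For *Ppara* 1 of the 4 LKO libraries lay apart from the other 3. *Esrra*, *Foxo1* and the glucocorticoid receptor *Nr3c1* did not pass. Over all 31 listed genes 10 were higher and 10 lower with a median logFC of 0.03, and the median over all tested genes was also 0.03.

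Of the tested markers of other liver cells some were called higher in LKO livers and none lower, where 23.4% of all tested genes were called higher. Their summed level was 204 to 224 CPM for stellate cells in LKO against 119 to 126 in WT livers (4 of 4 markers called higher), 85.4 to 96.3 against 61.2 to 64.4 for macrophages (3 of 4), 103.6 to 117.0 against 96.0 to 100.6 for endothelial cells (2 of 4) and 12.5 to 15.1 against 9.10 to 11.5 for cholangiocytes (2 of 4). Blood cell markers ranged from 99.0 to 147 against 76.5 to 92.2 (2 of 2 tested). The only adipocyte marker in the table lay between 1.53 and 1.92 CPM in LKO and between 0.930 and 1.45 in WT livers, and none of the 4 striated muscle markers was in the table. The 5 hepatocyte markers summed to between 105630 and 109590 CPM in WT and between 142490 and 171650 CPM in LKO livers, with 3 of 5 called higher. The part of these cells in the *Pdk* values was not tested.

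Over the 8 RNA libraries the genes whose log2 CPM followed *Pdk4* most closely were *Pla2g4a* and *Cd34* (Pearson's r = 0.988 each), *Ttc39aos1* (0.980), *Gm30505* (0.979) and *Cpz* (0.978). *Pdk1* ranked 252 with an r of 0.918, and *Pdk2* had an r of -0.601. After the group means were subtracted, the closest genes were *Fbxo17* (0.977), *Stx7* (0.957), *C5ar2* (0.950), *Nt5dc1* (0.938) and *Pla2g4a* (0.933), and *Pdk1* had an r of 0.085. These correlations describe 8 libraries in 2 groups and carry no test.

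H3K27ac over *Pdk4* was higher in *Ncor* LKO liver, most of all downstream of the promoter, while no region of *Pdk1*, *Pdk2* or *Pdk3* was called. Of the 8 *Pdk4* regions 5 were called higher, of the 11 paralog regions 0, and of all 68817 tested regions 2.32%. At the 11 kb site the WT libraries had 30.7, 31.2 and 28.4 tags per 10 M and the LKO libraries 82.1, 120 and 86.5 (logFC 1.68, SE 0.18, adjusted p = 0.00277). All LKO libraries there stood far above all WT libraries. At 46.2 kb the values were 36.0, 40.5 and 33.8 in WT and 99.7, 99.1 and 96.7 in LKO (logFC 1.42, SE 0.14, adjusted p = 0.00204), and at 25.1 kb 45.0, 49.4 and 49.2 against 114, 141 and 110 (logFC 1.35, SE 0.14, adjusted p = 0.00277). The 22 kb site rose from 9.27, 11.0 and 9.39 to 21.3, 28.8 and 23.0 (logFC 1.29, SE 0.20, adjusted p = 0.0091). In each of these the groups stood well apart.

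The *Pdk4* promoter gained less in *Ncor* LKO liver, from 204, 227 and 168 to 331, 316 and 294 tags per 10 M (logFC 0.65, SE 0.13, adjusted p = 0.0236). That call was lost without any 1 of the 3 WT libraries, with an adjusted p of 0.0819, 0.0543 and 0.092. At -13.6 kb the values were 80.3, 95.9 and 75.6 in WT and 113, 125 and 115 in LKO (logFC 0.49, adjusted p = 0.0862), with separate groups but no call. Together 7 of the 8 *Pdk4* regions had all LKO libraries above all WT libraries, and 0 of the 11 paralog regions did. The same count was not made over all tested regions, so it has no background share. The promoter of *Pdk1* had 266, 253 and 263 tags per 10 M in WT and 315, 245 and 254 in LKO liver (logFC 0.06). The *Pdk2* promoter had 634, 785 and 700 against 877, 547 and 779 (logFC 0.06), and the *Pdk3* promoter 15.4, 13.2 and 14.8 against 17.0, 16.8 and 15.2 (logFC 0.18). All 3 paralog promoters had overlapping groups. The median logFC was 1.14 over the *Pdk4* regions, 0.09 over the paralog regions and -0.00 over all regions.

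*Smrt* LKO liver showed no call at any kinase, nor at any of 68800 regions (0.0%) by edgeR, where 4079 regions had an unadjusted p under 0.05. DESeq2 called 68 regions. At *Pdk4* all 8 values were positive, with a logFC of 0.11 to 0.59 and a median of 0.32, against a median of 0.01 over all regions. The promoter had 343, 391 and 288 tags per 10 M in WT and 321, 379 and 404 in LKO liver (logFC 0.11), and the 11 kb site 77.6, 82.4 and 52.3 against 61.1, 83.4 and 86.7 (logFC 0.12). The groups overlapped at both. At 46.2 kb the values were 107, 112 and 58.6 against 120, 151 and 147 (logFC 0.59, adjusted p = 0.834), with separate groups but no call. Among the paralogs the intronic *Pdk1* region at 4.8 kb had a mean of 52.2 tags per 10 M in WT and 19.3 in LKO liver (logFC -1.43, unadjusted p = 0.00135, adjusted p = 0.803). The *Pdk1* promoter had 387, 335 and 408 in WT against 308, 302 and 297 in LKO liver (logFC -0.32, adjusted p = 0.834), with separate groups but no call.

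The difference between both knockout effects was tested itself. At the 11 kb site the *Ncor* effect exceeded the *Smrt* effect by 1.55 on the log2 scale (SE 0.28, adjusted p = 0.0319) and at the 25.1 kb site by 1.03 (SE 0.21, adjusted p = 0.0489). These were 2 of 8 *Pdk4* regions and 0 of 11 paralog regions, against 0.33% of all regions called in this direction. The number of *Pdk4* regions called ranged from 0 to 3 with 1 library left out. The 25.1 kb call was lost without any 1 library other than *Smrt* WT library 3 (adjusted p of 0.0501 to 0.122). The 11 kb call was lost without any 1 of the 3 *Ncor* WT libraries, *Ncor* LKO library 3, *Smrt* WT library 1 or 2, or *Smrt* LKO library 1 or 3 (adjusted p of 0.0518 to 0.0919). The promoter effects differed by 0.54 (adjusted p = 0.272), and those of the *Pdk1* region at 4.8 kb by 2.05 (adjusted p = 0.065).

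The WT libraries of the *Ncor* and *Smrt* lines, 3 of each, already differed at *Pdk4*, and this comparison was added after seeing the data. H3K27ac was higher in *Smrt* WT than in *Ncor* WT liver at 5 of 8 *Pdk4* regions and 2 of 11 paralog regions, both at *Pdk1*, against 13.1% of all regions called higher. The *Smrt* WT mean was 341 tags per 10 M at the promoter against 200 in *Ncor* WT liver (logFC 0.77, adjusted p = 0.00473), 70.8 against 30.1 at 11 kb (logFC 1.23, adjusted p = 0.00179) and 122 against 47.9 at 25.1 kb (logFC 1.35, adjusted p = 0.000207). For comparison, the *Ncor* LKO mean was 122 at 25.1 kb and 96.3 at 11 kb. The 6 *Smrt*-line libraries had 0 tags in peaks on chromosome Y and 249 to 289 tags per 10 M at *Xist*. Those of the *Ncor* line had 306 to 371 on chromosome Y and 2.93 to 4.92 at *Xist*, although the study's methods describe all mice as male. Line and sex-linked signal cannot be told apart in this comparison, nor in the difference between the *Ncor* and *Smrt* effects given above.

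**Figure D2:**
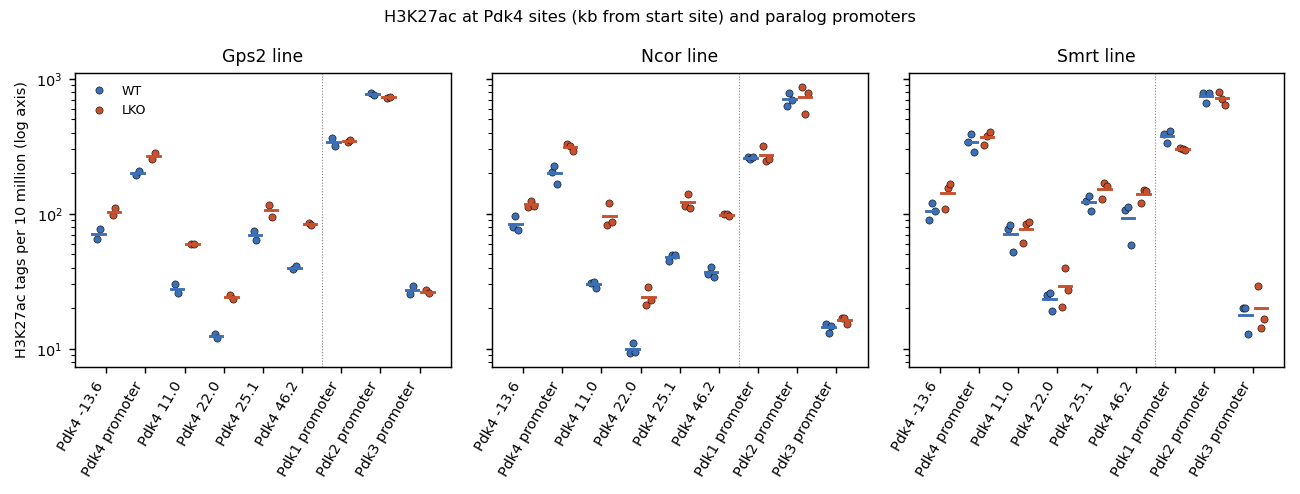
H3K27ac tags per 10 M (log axis) in every library at the *Pdk4* sites and at the promoters of *Pdk1*, *Pdk2* and *Pdk3*, for WT and LKO livers of the *Gps2*, *Ncor* and *Smrt* lines. LKO points lie above WT points at the *Pdk4* sites of the *Ncor* and *Gps2* lines, while both groups of the *Smrt* line overlap at 11 and 25.1 kb, with a WT mean of 70.8 and 122. Lines are group means, and the 22 kb region of the *Gps2* line was not tested. Region lengths differ, so heights compare between groups and not between sites.

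In *Gps2* LKO liver H3K27ac rose at 2 of 6 tested *Pdk4* regions and at 0 of 8 tested paralog regions, against 1.21% of all tested regions called higher. Tested were only regions in which at least 2 of the 4 libraries had an H3K27ac peak, which 14 of the 20 kinase regions met. The 46.2 kb site had 38.8 and 40.9 tags per 10 M in WT and 85.4 and 82.2 in LKO liver (logFC 1.07, SE 0.15, adjusted p = 0.022), and the 11 kb site 30.0 and 25.9 against 59.8 and 59.8 (logFC 1.10, SE 0.17, adjusted p = 0.0296). Without WT library 1 or 2 the logFC was 1.04 and 1.11 at 46.2 kb and 1.21 and 1.00 at 11 kb, without a call, in fits that called 0 and 3 of all 47108 tested regions. The promoter had 195 and 207 in WT and 255 and 280 in LKO liver (logFC 0.41, adjusted p = 0.0888), the -13.6 kb site 64.8 and 77.3 against 97.4 and 110 (logFC 0.55, adjusted p = 0.128) and the 25.1 kb site 74.7 and 63.7 against 116 and 95.4 (logFC 0.61, adjusted p = 0.112). In all 6 *Pdk4* regions both LKO libraries exceeded both WT libraries, which held for 2 of 8 paralog regions. How often this held over all tested regions was not counted. The promoters of *Pdk1* (364 and 320 against 338 and 351), *Pdk2* (790 and 755 against 726 and 730) and *Pdk3* (25.6 and 28.9 against 27.1 and 25.8) had a logFC of 0.01, -0.09 and -0.05. The median logFC was 0.58 for *Pdk4*, 0.13 for the paralogs and 0.06 for all tested regions.

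H3K4me3 was tested at 7 of the 20 kinase regions of the *Gps2* line, and 0 were called, against 0.916% of all tested regions (1837 of which had an unadjusted p under 0.05). At the *Pdk4* promoter WT libraries had 271 and 266 tags per 10 M and LKO libraries 308 and 293 (logFC 0.16). At the *Pdk1* promoter they had 395 and 369 against 407 and 430 (logFC 0.13), at the *Pdk2* promoter 622 and 562 against 567 and 594 (logFC -0.03) and at the *Pdk3* promoter 153 and 119 against 171 and 158 (logFC 0.27). *Pdk3*, whose mRNA was at the limit of detection, thus carried this promoter mark in every library.

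The promoter of *Pdk4* was also set against each paralog promoter within the same library. In *Ncor* LKO liver the log2 ratio of H3K27ac tags was higher than in WT by 0.61 against *Pdk1*, 0.63 against *Pdk2* and 0.48 against *Pdk3*, each with an exact permutation p of 0.1, the smallest that 3 against 3 libraries allow. In *Gps2* LKO liver the differences were 0.40, 0.50 and 0.45, each with the smallest p possible for 2 against 2 libraries (0.333, exact permutation). For *Smrt* LKO liver they were 0.43, 0.17 and -0.03, and for H3K4me3 in *Gps2* LKO liver 0.03, 0.19 and -0.12. None of the 25 promoter ratios tested over the ChIP-seq tables could reach a p of 0.05 in these group sizes.

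Pol II was measured in 1 WT and 1 *Gps2* LKO liver, which gives no test, and the exact Poisson intervals (95%) cover counting error only. The peak at the *Pdk4* start had 55 tags in WT and 91 in LKO liver, or 47.2 (35.5 to 61.4) and 76.5 (61.6 to 93.9) tags per 10 M, a ratio of 1.62. The *Pdk3* promoter had 25 and 41 tags, a ratio of 1.61. At *Pdk1* 199 tags were counted in both (ratio 0.980) and at *Pdk2* 246 and 254 (ratio 1.01). Of all Pol II peaks 15.9% were at least 1.5-fold higher in the LKO library, as were 1 of 1 *Pdk4*, 1 of 1 *Pdk3*, 0 of 2 *Pdk1* and 0 of 3 *Pdk2* peaks.

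GPS2 peaks were listed at 3 of the 4 kinase genes. In the *Gps2* line, with 1 library per group, the 11 *Pdk4* peaks held 462 tags in WT and 12 in LKO liver, the 5 *Pdk1* peaks 119 and 3, and the 4 *Pdk2* peaks 92 and 4. *Pdk3* had none. All 20 were at least 2-fold lower in the LKO library, as were 99.2% of all GPS2 peaks. The *Pdk4* promoter was the highest of them with 97 tags in WT and 0 in LKO liver, or 62.6 tags per 10 M (interval 50.8 to 76.4) and up to 2.49, which is at least 30.9-fold lower when 0 is counted as 3 tags. The *Pdk1* promoter had 48 and 0 tags (31.0 tags per 10 M in WT, at least 15.3-fold lower), and the *Pdk2* promoter 25 and 1. Of the *Pdk4* sites away from the promoter, 25.1 kb had 63 and 2 tags, 22 kb 62 and 1, -2.7 kb 54 and 1 and -13.6 kb 44 and 4.

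GPS2 at the kinase genes was lower in *Ncor* LKO liver in all 19 peaks by sign, and none passed the adjustment. Over all 56278 peaks 0.0338% were called, and 19323 had an unadjusted p under 0.05. At the *Pdk4* promoter WT libraries had 69.1, 94.0 and 25.2 tags per 10 M and LKO libraries 26.1, 27.2 and 21.8 (logFC -1.32, SE 0.61, adjusted p = 0.119). At -2.7 kb the values were 60.8, 52.4 and 15.5 against 15.3, 19.5 and 14.0 (logFC -1.39, adjusted p = 0.109). WT library 3 stood at the LKO level at both sites. In that library 3.07% of all tags lay in GPS2 peaks, against 8.23 and 7.82% in the other WT libraries and 2.45 to 3.15% in the LKO libraries. Without it 8 of the 11 *Pdk4* peaks were called lower, among them the promoter (logFC -1.69, adjusted p = 6.85e-08), as were 33248 of all 56277 peaks tested. The *Pdk1* promoter had 45.9, 34.1 and 14.5 in WT against 10.4, 4.13 and 5.71 in LKO liver, with separate groups (logFC -2.20, adjusted p = 0.0761). With the default filter on low counts the *Pdk1* promoter and the 16.2 kb site of *Pdk4* were called lower (adjusted p = 0.0496 each), among 1698 of the 24882 peaks then tested. The median logFC was -1.23 over the *Pdk4* peaks and -1.12 over all peaks. With scaling by the peaks themselves (TMM), which moved the median of all peaks to -0.02, the *Pdk4* promoter had a logFC of -0.15, the -2.7 kb site of -0.23 and the 22 kb site of -0.01, and the sign at 11 kb turned to 0.66. By DESeq2 the 22 kb site turned to 0.03 and the 11 kb site to 0.70.

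In *Pparα* KO liver GPS2 at the kinase genes was again lower by sign in all 11 peaks with scaling to total tags. None was called in the fit over all 27842 peaks, against 0.273% of them called and 6410 with an unadjusted p under 0.05. The -13.6 kb site of *Pdk4* came closest, with 12.5, 10.4 and 17.7 tags per 10 M in WT and 2.91, 3.78 and 2.16 in KO liver (logFC -2.16, SE 0.66, adjusted p = 0.0964). With the default filter on low counts this site was called lower (adjusted p = 0.0443), among 150 of the 13191 peaks then tested. At -2.7 kb WT libraries had 18, 16.3 and 51.6 and KO libraries 11.7, 7.57 and 3.61 (logFC -1.89, SE 0.58, adjusted p = 0.107), and at the promoter 13.9, 24.7 and 36.9 against 13.8, 9.08 and 5.05 (logFC -1.42, adjusted p = 0.165). Groups did not overlap at 6 of the 8 *Pdk4* peaks, and how often this held over all peaks was not counted. *Pdk1* and *Pdk2* had 1 and 2 peaks there, with a logFC of -0.94 to -1.75, and *Pdk3* none. The median logFC was -1.49 over the *Pdk4* peaks and -0.93 over all peaks. With TMM scaling the logFC was -1.25 at -13.6 kb, -0.91 at -2.7 kb and -0.50 at the promoter. At 22 kb the sign turned, from -0.65 to 0.36 with TMM scaling, 0.41 by DESeq2 and 0.37 without WT library 3. Tags in peaks made up 2.42 to 4.39% of the WT and 1.07 to 2.06% of the KO libraries, and their part in these values was not tested.

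**Figure D3:**
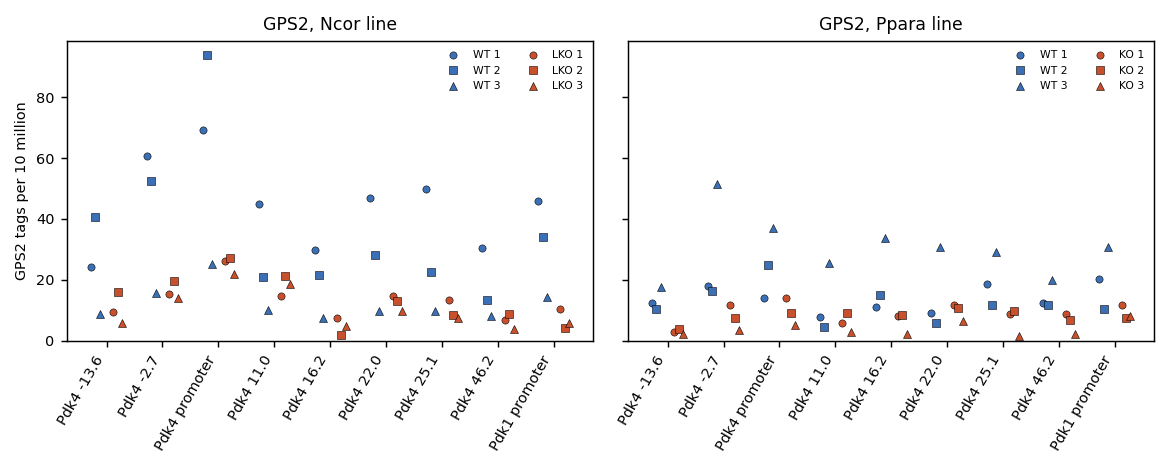
GPS2 tags per 10 M (linear axis) in every library at the *Pdk4* sites and the *Pdk1* promoter, in WT and *Ncor* LKO livers and in WT and *Pparα* KO livers, 3 libraries per group. *Ncor* WT library 3 sits with the LKO libraries at the *Pdk4* promoter and at -2.7 kb, while at -13.6 kb the *Pparα* KO points lie below all WT points.

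NCOR at *Pdk4* fell in *Pparα* KO liver at both upstream sites, and the promoter did not pass the test. At -13.6 kb WT libraries had 32.5, 45.6 and 37.9 tags per 10 M and KO libraries 6.54, 6.73 and 7.83 (logFC -2.44, SE 0.38, adjusted p = 4.91e-08). At -2.7 kb they had 92.7, 85.1 and 96.9 against 44.1, 31.6 and 19.2 (logFC -1.54, SE 0.24, adjusted p = 7.45e-08). Both groups were far apart at these sites, and both calls held under every alternative run. These were 2 of 18 *Pdk4* peaks, against 2.51% of all 115042 NCOR peaks called lower. At the promoter, less than 3 kb from the nearer site, the values were 100, 115 and 108 in WT and 112, 109 and 66.2 in KO liver (logFC -0.17, adjusted p = 0.679), with overlapping groups. KO library 3, the library with fewest tags there and at -2.7 kb, had 17.2% of its tags in peaks, against 22.2 to 27.5% in the other libraries.

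The downstream *Pdk4* sites did not pass for NCOR in *Pparα* KO liver. The 25.1 kb site, the one with most NCOR tags of the 8 in WT, had 146, 138 and 168 tags per 10 M in WT and 153, 146 and 133 in KO liver (logFC -0.07). At 11 kb the values were 87.8, 45.6 and 115 against 103, 105 and 105 (logFC 0.33, adjusted p = 0.402), which was called higher with TMM scaling (logFC 0.67, adjusted p = 0.0231). The 16.2, 22 and 46.2 kb sites had a logFC of -0.52, 0.06 and -0.14. Within each library, the -2.7 kb site held 0.739 to 0.927 times the promoter's tags in WT and 0.290 to 0.394 times in KO liver, and 0.578 to 0.633 against 0.144 to 0.289 times those of the 25.1 kb site. The -13.6 kb site held 0.325 to 0.396 times the promoter's tags in WT and 0.0584 to 0.118 times in KO liver. None of these ratios overlapped between groups, each with an exact permutation p of 0.1, the smallest possible for 3 against 3. The ratios were added after seeing the data, and they set sites called lower against sites not called in these same libraries. They are therefore no separate support for those calls.

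At the paralogs NCOR was lower by sign in all 10 *Pdk1* peaks of *Pparα* KO liver with scaling to total tags. The median logFC over all NCOR peaks was -0.32 under that scaling. With TMM scaling the logFC of the *Pdk1* promoter moved from -0.32 to 0.004. The intronic peak at 18 kb was called (7.58 to 1.24 tags per 10 M, logFC -2.54, adjusted p = 0.0361), a call that neither TMM scaling (adjusted p = 0.118) nor the replicate block (0.0536) gave, nor did any fit lacking 1 library other than WT library 1 (0.0625 to 0.368). *Pdk2* had 0 of 6 called, and its main peak at 2.0 kb had a mean of 93.4 in WT and 88.1 in KO liver (logFC -0.09). *Pdk3* had no NCOR peak in either line. In *Gps2* LKO liver NCOR was called at 0 of 23 kinase peaks and 0.0173% of all 80813 peaks, with 2253 at an unadjusted p under 0.05. *Pdk4* values there ran from a logFC of -0.30 to 0.44 with a median of -0.04. Its promoter had 59.2, 67.9 and 33.6 in WT and 50.2, 59.6 and 28.8 in LKO liver (logFC -0.21, SE 0.44), with overlapping groups.

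**Figure D4:**
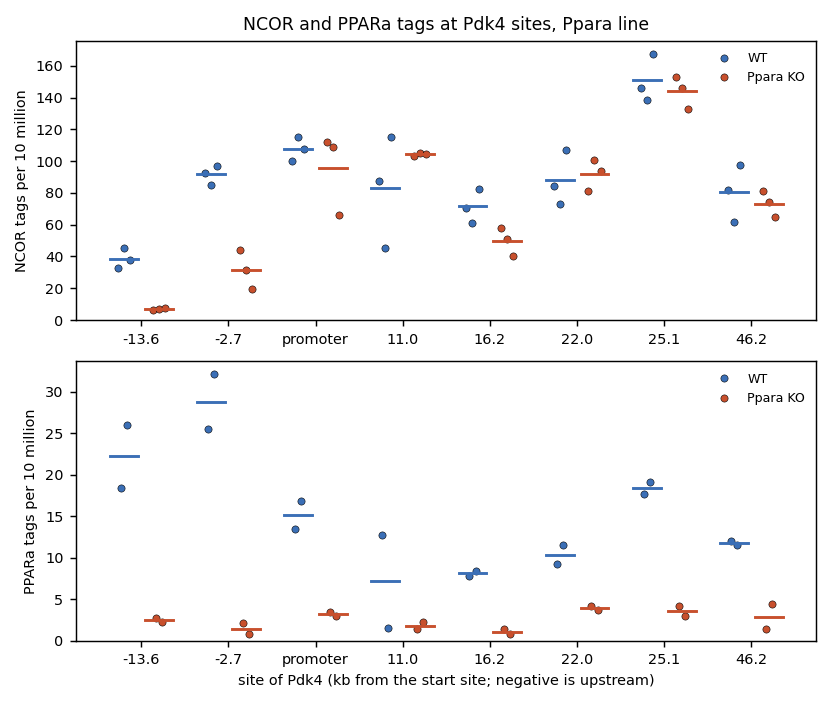
NCOR (3 libraries per group) and PPARα (2 per group) tags per 10 M (linear axes) at the 8 *Pdk4* sites in WT and *Pparα* KO livers, with lines at the group means. NCOR points of KO livers fall below WT points at -13.6 and -2.7 kb and mix with them at the promoter and at 25.1 kb, while PPARα points of KO livers lie below WT points at all sites but 11 kb.

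PPARα ChIP-seq in *Pparα* KO liver gives the background of the antibody without its target. The signal fell at 6 of 9 *Pdk4* peaks, against 27.6% of all tested peaks called lower. The -2.7 kb site had 25.5 and 32.1 tags per 10 M in WT and 2.06 and 0.73 in KO liver (logFC -4.26, adjusted p = 1.68e-05), the -13.6 kb site 18.4 and 26.0 against 2.75 and 2.20 (logFC -3.11, adjusted p = 0.000133) and the promoter 13.5 and 16.8 against 3.43 and 2.93 (logFC -2.21, adjusted p = 0.0024). KO libraries were below WT libraries at each of these. The 25.1 kb (logFC -2.35), 16.2 kb (-2.83) and 46.2 kb (-2.02) sites were called too, while 22 kb (-1.38, adjusted p = 0.0536) and 11 kb (-1.98, adjusted p = 0.117) were not. Among the paralogs the *Pdk2* peak at 2.0 kb fell from a mean of 13.7 to 1.42 (logFC -3.18, adjusted p = 0.000887) and 0 of 3 *Pdk1* peaks were called. Without WT library 1 or 2 the logFC was -4.42 and -4.09 at -2.7 kb and -2.37 and -2.05 at the promoter, in fits that called 0 peaks of the whole table. The calls depended on the scaling, since of the *Pdk4* peaks only the -2.7 kb site was called with TMM scaling (logFC -2.77, adjusted p = 0.00334) or by DESeq2 (logFC -2.71, adjusted p = 0.029).

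In *Gps2* LKO liver PPARα was higher at 5 of the 25 kinase peaks, a share near that over the whole table. The 3 WT libraries differed by no more than sampling noise (chi-square per degree of freedom of 0.923 to 0.937) and were counted as 1 sample against 3 LKO libraries, so that the spread in this test comes from the LKO libraries alone and the WT sample is assumed to vary like them. With every WT library kept separate 7 *Pdk4* peaks were called. Called higher were 3 of 10 *Pdk4* peaks, 1 of 7 *Pdk1*, 1 of 7 *Pdk2* and 0 of 1 *Pdk3* peaks, against 21.5% of all peaks. The 11 kb site had 39.6 tags per 10 M in WT and 69.0, 72.9 and 80.9 in LKO liver (logFC 0.92, adjusted p = 0.00516), and the 22 kb site 48.7 against 80.4, 85.3 and 71.5 (logFC 0.69, adjusted p = 0.0332). The third was the intronic peak at 9.5 kb (logFC 0.95, adjusted p = 0.0107). The promoter had 134 against 228, 173 and 140 (logFC 0.40, adjusted p = 0.22) and the -13.6 kb site 148 against a mean of 160 (logFC 0.09). The *Pdk1* peak at 18.3 kb rose from 36.6 to 67.8 (logFC 0.88, adjusted p = 0.00882) and the *Pdk2* promoter from 10.3 to 21.8 (logFC 1.08, adjusted p = 0.0259). The WT libraries of that *Pdk2* peak had 2.53, 19.0 and 6.76 tags per 10 M, its logFC ranged from 0.70 to 2.17 with 1 library left out, and 4 of the 6 fits lacking 1 library no longer called it (adjusted p of 0.0888 to 0.187). In the 3000 bp promoter window its logFC was 0.50 (adjusted p = 0.125). The median over all peaks was 0.62, the share of tags in peaks was 19.2 to 21.9% in WT and 28.9 to 32.1% in LKO libraries, and with TMM scaling or by DESeq2 0 *Pdk4* peaks were called.

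PPARα in *Ncor* LKO liver was called at 0 of 29 kinase peaks, against 0.196% of all peaks. All 13 *Pdk4* values were positive, from 0.12 to 1.40, where the median logFC over all peaks was 0.10. The 11 kb site led with 50.6, 35.8 and 12.8 tags per 10 M in WT and 73.0, 83.2 and 105 in LKO liver, and its groups did not overlap (logFC 1.40, SE 0.47, adjusted p = 0.325). With scaling to tags in peaks it was called (logFC 1.34, adjusted p = 0.000212), as it was by DESeq2 (logFC 1.35, adjusted p = 7.07e-06). WT library 3 had 8.96% of its tags in peaks against 18.6 and 19.3% in the other WT libraries. The *Pdk4* promoter had a mean of 83.6 ± 32.5 in WT and 98.1 ± 12.1 in LKO liver (SD, n = 3, logFC 0.23), and *Pdk1*, *Pdk2* and *Pdk3* promoters had a logFC of -0.07, -0.01 and 0.11.

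**Figure D5:**
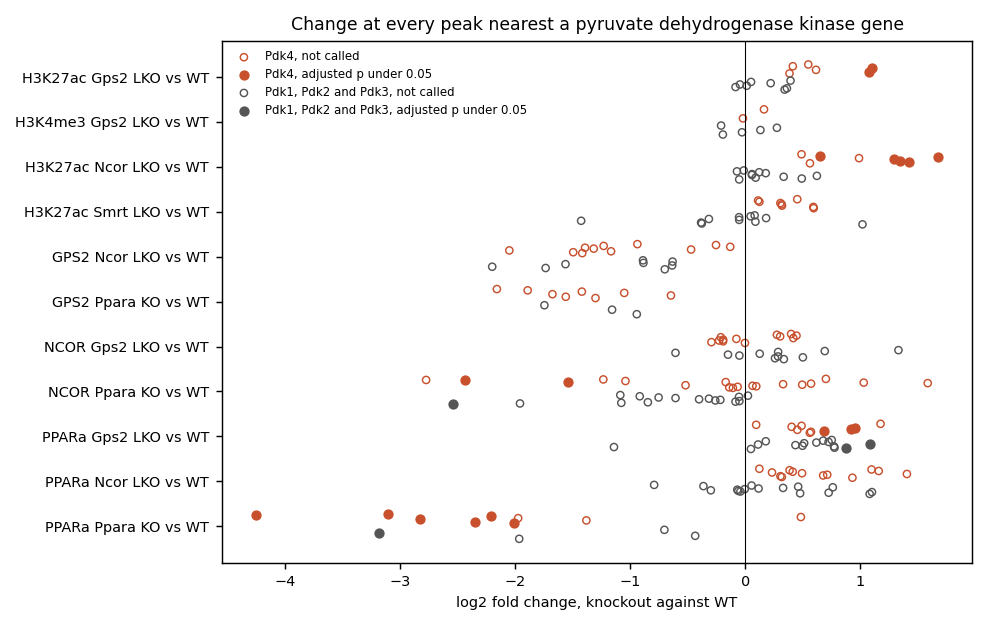
LogFC (knockout against WT) of every tested kinase peak in each tested ChIP-seq comparison of a knockout with its WT, with *Pdk4* apart and *Pdk1*, *Pdk2* and *Pdk3* pooled. Filled points passed an adjusted p of 0.05. In H3K27ac of *Ncor* LKO liver the *Pdk4* points range from 0.49 to 1.68 with 5 filled, and those of the paralogs from -0.07 to 0.62 with none filled.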

How the data were processed

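RNA-seq read counts per gene and ChIP-seq tag counts per peak were deposited by the authors as whole numbers with no normalization. Per the study's methods, RNA-seq reads were mapped to mm9 with HISAT2 and counted over exons by HOMER, and ChIP-seq reads were mapped to mm9 by Bowtie with peaks from HOMER. The submitters' processing notes also name Bowtie2, SAMtools and featureCounts and the builds mm10 and GRCm38, with no versions. Peak coordinates were on mm9. Gene starts of the RNA-seq table fitted GRCm38 (90.3% of 14559 within 1000 bp) and not NCBIM37 (5.0% of 13002). Also used from the deposited files were exon length in bases and distance to the transcription start, and 8 histone peak lists with a constant value of 1 served for their positions. Columns of the authors' own fold changes and p-values were not used, nor were the 2 input libraries.

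RNA-seq counts were tested with edgeR 4.0.16 (quasi-likelihood, TMM scaling, default filter on low counts, Benjamini-Hochberg adjustment over all tested genes). Peak counts were tested the same way, with the total tags of the file headers as library size and peaks of at least 1 tag, and are given per 10000000 tags. An adjusted p under 0.05 was called. Where a group had 1 library, exact Poisson intervals (counting error alone) took the place of a test, and 0 tags were read as up to 3. Ratios and single genes were tested by exact two-sided permutation. Alternatives used DESeq2 1.42.0, TMM scaling, other filters, a replicate block and leaving out each library in turn. Analyses ran in R 4.3.3 and Python 3.11.15, and scripts were tested on simulated data.

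Named were all 4 kinases, the peak at each start (within 1000 bp), up to 4 other *Pdk4* and 1 other paralog peaks with most tags per table, every called kinase peak, the 5 genes most correlated with *Pdk4*, and the pathway lists. Members and lists were chosen with earlier results of these data known. Numbers were not taken to pair WT and knockout libraries: in no comparison with 3 or 4 pairs did every same-numbered pair deviate together (correlation over 0.1). With only 2 pairs, both correlations were 0.175 for H3K27ac and 0.266 for H3K4me3 in the *Gps2* line, and -0.058 for PPARα in the *Pparα* line.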

Additional observations from a re-analysis of the deposited data

Results flagged for a closer look

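The effect of *Ncor* LKO on H3K27ac differed from that of *Smrt* LKO at 2 *Pdk4* regions by the test of the difference itself, by 1.55 on the log2 scale at 11 kb and by 1.03 at 25.1 kb. Both calls were lost under the replicate block, and each was lost in most fits lacking 1 library. The lines also differed in sex-linked signal, which cannot be told apart from line in this difference. Among genes near the kinases, 1 of 4 libraries stood apart for *Pck1* in LKO livers (gap to the nearest library over the whole range 0.865), for *Ppara* in LKO livers (0.851) and for *Esrra* in WT livers (0.843), each above Dixon's 95% critical value for 4 samples. Of 70 groups tested these were 3, and chance flags about 1 in 20.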

How the results depend on the processing

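The number of *Pdk4* peaks called moved as follows. With TMM scaling it was 0 for PPARα in *Gps2* LKO liver (3 as reported), 1 for PPARα in *Pparα* KO liver (6), 2 for PPARα in *Ncor* LKO liver (0) and 1 for the *Ncor* against *Smrt* difference (2). By DESeq2 it was 0, 1 and 2 for the 3 PPARα comparisons in that order. Taking every PPARα WT library of the *Gps2* line separately gave 7. The default filter on low counts gave 1 for GPS2 in *Ncor* LKO and 1 in *Pparα* KO liver (0 each). With 1 library left out the count ranged from 0 to 4 for H3K27ac in *Gps2* LKO liver (2), 0 to 8 for GPS2 in *Ncor* LKO, 2 to 5 for PPARα in *Gps2* LKO, 0 to 5 for PPARα in *Pparα* KO liver and 0 to 3 for the *Ncor* against *Smrt* difference. The *Pdk4* to *Pdk1* RNA ratio ranged from 0.43 to 0.73 and the *Pdk4* to *Pdk2* ratio from 1.26 to 1.54 (exact permutation p = 0.0571, the smallest for 3 against 4). The cause of these moves was not tested. Of 1635 values under an alternative 101 lost and 48 gained a call, 108 turned in sign with no call in either fit and 0 turned in sign with a call.

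Fitting the replicate number as a block gave 5 *Pdk4* peaks for H3K27ac in *Gps2* LKO (added were the promoter, adjusted p = 0.0219, -13.6 kb, 0.03, and 25.1 kb, 0.0191), 1 for GPS2 in *Ncor* LKO, 7 for PPARα in *Gps2* LKO, 0 for PPARα in *Pparα* KO liver and 0 for the *Ncor* against *Smrt* difference. *Pdk2* RNA was called lower under the block (logFC -0.21, adjusted p = 0.0218), by DESeq2 (-0.22, 0.0364), without the filter (-0.21, 0.0469) and with the trend on gene length removed (-0.34, 0.00485). Over all features, calls differed by over 1.5 times for PPARα in *Gps2* LKO liver (22237 as reported, 1001 with TMM scaling, 22 by DESeq2, 37826 with every library separate and 37246 with the block), PPARα in *Pparα* KO liver (11119, against 1130, 569, 7357 with the default filter and 0 with the block), PPARα in *Ncor* LKO liver (169, against 1487, 463, 75 with the default filter and 0 with the block), NCOR in *Gps2* LKO liver (14, against 354, 65, 8 with the default filter and 288 with the block), GPS2 in *Ncor* LKO liver (19, against 1288, 450, 10541 with the block and 1700 with the default filter), GPS2 in *Pparα* KO liver (76, against 12 by DESeq2, 151 with the default filter and 0 with the block), H3K27ac in *Ncor* LKO liver (2145, against 3395 by DESeq2 and 1143 with the block), H3K27ac in *Gps2* LKO liver (668, against 389 with TMM, 1080 over all rows and 2464 with the block), H3K4me3 (209, against 32 over all rows and 701 with the block), NCOR in *Pparα* KO liver (3042, against 598 by DESeq2 and 1972 with the block), H3K27ac in *Smrt* LKO liver (0, against 68 by DESeq2) and the *Ncor* against *Smrt* difference (293, against 1236 by DESeq2 and 69 with the block). For GPS2 in *Ncor* LKO liver the direction of the calls moved as well. All 19 calls as reported were lower, as were 10495 of 10541 with the block and 1698 of 1700 with the default filter. With TMM scaling 1042 of the 1288 calls were higher, and by DESeq2 388 of the 450. With 1 library per group Pol II and GPS2 in the *Gps2* line allow no test, and at most 3 libraries per group limit all single-site permutation tests.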
